A study of Mus musculus with 12 samples.

Results

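The transcripts described here were those read by the coordinate-named probes of an Agilent mouse expression array, whose targets are listed by genome interval and orientation rather than by a transcript accession. The array held 56605 non-control probes, of which 4450 carried such a name. Members were chosen by the scanner software's mark for signal well above background, which a coordinate-named probe had to carry on each of the 3 arrays of some treatment group. Of the 4450, 2453 (55.1%) did. Under the same rule 61.1% of the other 52155 probes were kept, and 34331 probes were kept in all. The mark is set from the measured signal, and 278 members passed through a single group. The lowest signal that carried the mark differed between arrays. The rule therefore favoured, but did not require, a brighter signal of such a member in that group. Of the members, 1565 were well above background on all 12 arrays, and counts are given for these beside the counts for all members.

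The samples were total RNA of mouse embryonic stem cells, on 12 arrays in 4 groups of 3 that the submitters describe as biological replicates. All cells grew in medium with LIF and 250 nM PD173074, an inhibitor of FGF receptors. The untreated cells were labelled as 0 h. The 4OHT cells received 250 nM 4-hydroxytamoxifen (4OHT) for 6 h, the MG132 cells received 1 µM of the proteasome inhibitor MG132 for 30 min and a further 6 h, and the remaining group received MG132 30 min before 4OHT and then both for 6 h. The series title names Erk and the proteasome, so the comparisons ask which transcripts moved with 4OHT and which of those movements differed when the proteasome was inhibited. The labels name neither the cell line nor a protein that 4OHT would activate, and no vehicle or untreated 6 h sample was among the arrays, so compound and elapsed time cannot be told apart in comparisons with untreated cells.

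Long non-coding RNAs are transcripts without a long open reading frame, many of them capped, spliced and polyadenylated like messenger RNAs, and those that lie between protein-coding genes are called intergenic. Many are present at low levels and change between cell states. 4OHT is the ligand commonly used to switch on kinases or recombinases fused to a modified oestrogen receptor domain, Erk signalling moves embryonic stem cells out of self-renewal, and MG132 blocks the proteasome and raises heat shock genes.

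The intervals are in mouse build mm9, the build named by the scanner headers, and range from 62 to 533972 bp, with a median of 11751 bp for members and 8612 bp for coordinate-named probes that were not kept. The suffix F or R of a name is the orientation given by the array design. What genes lie in or beside the intervals, and where within its interval a probe lies, was not analysed here, so the word intergenic was not checked. The share kept was lowest for intervals of at most 1 kb (425 of 967, 44.0%) and was 56.3% from 1 to 10 kb, 59.2% from 10 to 30 kb and 59.2% above 30 kb. By chromosome it ran from 44.3% on chromosome X to 65.8% on chromosome 4, and it was 54.2% for F and 56.0% for R probes. The 4450 probes cover 3230 intervals, of which 1928 had a member and 360 had members in both orientations. The rule's edge lay at low signal. On a scale where 100 is an array's 75th percentile, called scaled intensity below, the highest group mean of the 19 members seen on exactly 3 arrays ran from 3.52 to 10.2, with a median of 4.90. The 260 probes just outside, with 2 arrays of a group marked, had a median of 4.67 and a range of 2.60 to 1602.

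The arrays were not equally sensitive. Between 39.4% and 59.9% of coordinate-named probes were well above background, against 50.4% to 63.5% of the other probes, and the 4 lowest arrays (4OHT replicates 2 and 3 and MG132 replicates 1 and 2) lay side by side on 1 slide. That slide held all untreated and 4OHT arrays and MG132 replicates 1 and 2. The other slide held MG132 replicate 3 and all 3 arrays with both compounds. Comparisons of both compounds with 4OHT alone therefore cross slides throughout, and those with MG132 share a slide through a single MG132 array. The part of slide and position in the results was not tested apart from the values given beside them. Replicate correlations over members were lowest with 4OHT (0.947 to 0.963), ran from 0.972 to 0.983 with MG132, and lay between 0.985 and 0.990 in the remaining groups. Genes of known response moved with the labels. The mean scaled intensity of Egr1, an early target of Erk, was 320.2 in untreated cells, 2717 with 4OHT, 40.8 with MG132 and 12811 with both, and that of the heat shock gene Hspa1a was 87.3, 60.5, 2265 and 4661 in the same order. All 10 embryonic stem cell markers (among them Pou5f1, Sox2 and Nanog) were well above background on all 12 arrays. Values of members are averages over all cells of a culture, so fewer cells of a type and less RNA per cell cannot be told apart.

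With 4OHT a smaller share of members than of all probes kept was called. Against untreated cells 193 members were higher and 148 lower, 341 of 2453 (13.9%), where 28.7% of all probes kept were called (13.4% higher and 15.4% lower). On all 12 arrays the share was 15% of 1565, against 30.3% of all such probes. Among the called members 78 were at least 2-fold higher and 51 at least 2-fold lower, which is 3.18% and 2.08% of members, against 5.54% and 5.68% of all probes kept. These counts use fitted differences, whether or not both groups were above background. For members on all 12 arrays they were 45 and 15 (2.88% and 0.958%), against 4.95% and 3.96% of all such probes. The median difference over members was 0.09 on the log2 scale, against 0.01 over all probes. With probes split into 4 equal classes of mean signal, the share called was 11.8% of members and 21.9% of other probes in the dimmest class, and 16.4% and 27.2% in the brightest. The median standard error was 0.21 over members and 0.17 over all probes. The split of directions depended on scaling: 56.6% of called members were higher, against 42.7% after quantile normalization, 37.0% after median centring and 87.4% (of 659 called) after normexp background correction.

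Among members with at least 1 array of each group well above background and no overlap of the groups, the largest rise was at chr2:128137419-128141735_R. Its scaled intensity was 2.37, 2.38 and 5.78 in untreated cells, 35.4, 36.7 and 41.6 with 4OHT, 14.8, 9.56 and 9.34 with MG132, and 22.5, 19.8 and 14.9 with both. In untreated cells 1 of 3 arrays was well above background, and the 4OHT values lay above all others. The log2 difference between 4OHT and untreated cells was 3.57 ± 0.33 (SE; adjusted p = 3.56e-05). The next 4 rises came from brighter or steadier probes. At chr16:9129538-9137898_F the values were 49.3, 48.2 and 60.1 in untreated cells, 767, 754 and 325 with 4OHT, 47.2, 49.3 and 51.3 with MG132, and 229, 256 and 184 with both, and the rise was 3.45 ± 0.29 (SE; adjusted p = 1.83e-05). The third 4OHT array was the lowest of its group, yet all 3 lay above every untreated array. A neighbouring interval in the same orientation, chr16:9158862-9162427_F, read 4.60, 5.13 and 9.30 in untreated cells, 49.1, 53.2 and 36.0 with 4OHT, 6.58, 6.22 and 8.46 with MG132, and 53.8, 54.0 and 50.5 with both, a rise of 2.92 ± 0.25 (SE; adjusted p = 2.25e-05).

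At chr5:73771801-73772662_F scaled intensity was 11.2, 10.7 and 12.6 in untreated cells, 160.4, 169.5 and 65.6 with 4OHT, 32.0, 28.8 and 48.6 with MG132, and 232, 208 and 156 with both. This member rose with 4OHT by 3.40 ± 0.34 (SE; adjusted p = 5.9e-05) and also with MG132 alone by 1.63 ± 0.34 (SE; adjusted p = 0.00335). The chr12:82457625-82476325_R probe gave 6.03, 4.05 and 10.5 in untreated cells, 54.4, 58.7 and 46.5 with 4OHT, 4.92, 5.07 and 8.05 with MG132, and 62.2, 60.3 and 58.6 with both, so that the cells with 4OHT, with or without MG132, stood apart from the rest, and its 4OHT rise was 3.06 ± 0.30 (SE; adjusted p = 5.56e-05). The sixth by size, chr15:99765243-99783300_F, was set by unequal arrays, at 1.97, 3.51 and 4.55 in untreated cells and 5.07, 68.3 and 48.9 with 4OHT. Its rise of 3.02 ± 0.90 (SE; adjusted p = 0.0287) lost its call in 8 of 25 alternative settings, among them without untreated replicate 1 or 2 or without 4OHT replicate 2 (2.32) or 3 (2.56), and was 4.20 without 4OHT replicate 1.

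Where no array of a group is well above background the signal there is only bounded, so what is printed is a lower bound of the fold. It sets the bright group's mean against the dim group's mean of, per array, the lowest signal marked above background or the probe's own if higher. The largest such rise was at chr11:3521324-3539552_F. Its values were 0.763, 0.639 and 0.869 in untreated cells, 95.7, 95.2 and 33.3 with 4OHT, 1.11, 0.963 and 0.753 with MG132, and 19.7, 20.7 and 14.4 with both, with all arrays containing 4OHT well above background and none of the others. It was at least 24.2-fold higher with 4OHT than in untreated cells (adjusted p = 1.7e-06). At chr14:43408099-43415349_F the values were 1.01, 1.51 and 1.69 in untreated cells, 29.4, 27.0 and 15.5 with 4OHT, 4.18, 5.50 and 6.25 with MG132, and 51.8, 57.2 and 50.6 with both, and the rise was at least 8.31-fold (adjusted p = 3.71e-06). Such bounds above 1, with all 3 arrays of the bright group above background and none of the dim group, were counted whether or not the test was passed. They existed for 3 members that were higher and 28 that were lower with 4OHT (0.122% and 1.14%), against 0.355% and 1.37% of all probes kept. A member that entered only through its bright group was chosen by the same mark that these counts use.

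Several of these intervals carried a second probe in the same orientation that moved alike. The probe pair of chr1:52507332-52514490_R rose by 3.07 ± 0.21 (SE; adjusted p = 4.42e-06) and 2.97 ± 0.21 (SE; adjusted p = 5.84e-06), the first from 79.2, 82.3 and 90.3 to 943, 779.8 and 474 and the second from 125, 114 and 129 to 1267, 1071 and 660.1. At chr4:146507925-146532650_R the rises were 2.58 (adjusted p = 7.69e-06) and 2.60 (adjusted p = 1.58e-05), and at chr6:52046805-52072744_F they were 2.38 (adjusted p = 4.04e-06) and 2.50 (adjusted p = 3.06e-06). These pairs were picked after their values were seen, so their agreement is a description.

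Among members with at least 1 array above background in both groups, falls with 4OHT were smaller than the rises. That restriction favours such an outcome. The lowest marked signal was 2.73, 2.79 and 2.81 in untreated cells and 3.64, 6.86 and 5.04 with 4OHT. Deep falls thus left the set more readily, and 28 members had a bounded fall against 3 with a bounded rise. Whether falls were smaller over all members cannot be decided from this set. The largest fall in it was at chr11:119254413-119296960_F, a change of -2.17 ± 0.22 (SE; adjusted p = 5.84e-05). Scaled intensity there was 18.4, 16.9 and 17.4 in untreated cells, 5.25, 2.85 and 3.98 with 4OHT, 22.5, 20.2 and 31.4 with MG132, and 10.1, 9.09 and 10.7 with both. All 3 arrays with 4OHT alone were below all others, and 1 of the 3 was well above background. The chr1:183951156-183986156_R probe read 16.6, 21.3 and 17.0 in untreated cells and 6.13, 3.16 and 6.12 with 4OHT, a change of -1.89 ± 0.26 (SE; adjusted p = 0.000432). The chr11:16831925-16851121_R probe moved in opposite directions with the 2 compounds. It read 27.6, 24.3 and 28.5 in untreated cells, 5.55, 5.77 and 12.6 with 4OHT, 43.6, 48.4 and 84.4 with MG132, and 17.7, 22.1 and 22.1 with both, with -1.85 ± 0.32 (SE; adjusted p = 0.0018) for 4OHT and 1.07 ± 0.32 (SE; adjusted p = 0.0215) for MG132, both against untreated cells. Other falls named by size were at chr8:12535648-12544923_R (-2.02, adjusted p = 0.000595), chr17:17492400-17507525_R (-2.00, adjusted p = 0.00248) and chr1:82892851-82943201_R (-1.93, adjusted p = 0.0108), the last of which lost its call when only the 6 arrays compared were fitted. At chr17:15368546-15377747_R no array with 4OHT was well above background. Its values were 16.6, 16.7 and 12.9 in untreated cells, 2.15, 1.75 and 1.79 with 4OHT, 18.7, 17.8 and 10.4 with MG132, and 2.83, 2.57 and 4.27 with both, at least 3.05-fold lower with 4OHT (adjusted p = 1.78e-05). The chr5:136371885-136372424_R probe was at least 2.89-fold lower (adjusted p = 0.00121), a call lost after normexp correction.

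The 4OHT arrays also differed in markers of other cell types. The summed scaled intensity of 11 fibroblast or feeder markers was 278.0 to 375 in untreated cells and 2887 to 4479 with 4OHT, mostly through Thy1 (237 and 3095 on average). Of these 11, Thy1, Twist1 and S100a4 were higher, Pdgfrb was lower (-1.60 ± 0.51 (SE; adjusted p = 0.0392)), Col1a1, Col1a2, Dcn and Pdgfra did not pass the test, and Col3a1, Postn and Lum, on 1, 3 and no arrays above background, were not tested. For 7 trophoblast markers it was 1575 to 1696 and 2834 to 6673, mostly through Krt18 (559 and 3705). Of these 7, Krt18, Cdx2, Eomes and Hand1 were higher, none was lower, Krt8 and Tfap2c did not pass the test, and Elf5 was above background on no array. The part of these in the members' changes was not tested. Leaving out the arrays in the second row of slide positions was chosen after seeing the data. It left 4OHT replicate 1 and MG132 replicate 3 as the only arrays of their groups. The median 4OHT difference over members was then 0.25. A fit of all arrays with that row as a block gave 622 called members.

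More members passed the test with the proteasome inhibitor MG132 than with 4OHT, though not in every setting. Against untreated cells 372 were higher and 275 lower, 647 of 2453 (26.4%), where 42.9% of all probes kept were called (21.0% higher and 21.8% lower). On all 12 arrays the share was 28.9%, against 45.6% of all such probes. Called changes of at least 2-fold, by fitted difference, were 177 higher and 79 lower, which is 7.22% and 3.22% of members, against 10.1% and 5.05% of all probes kept. For members on all 12 arrays they were 76 and 53 (4.86% and 3.39%), against 6.76% and 4.97% of all such probes. The median difference was 0.06 for members and 0.00 for all probes. Of called members 57.5% were higher, against 40.5% after quantile normalization and 24.2% after median centring, which moved the median of all probes by −0.30 relative to the 75th percentile scale. Among called members on all 12 arrays 221 were higher and 232 lower (48.8% higher), against 42.3% higher of all such called probes. With slide as a block 587 members were called, and within slide 1, with 2 MG132 arrays, 469. After normexp correction the order was the other way, with 529 members called for MG132 and 659 for 4OHT. All 10 embryonic stem cell markers were lower with MG132, and their summed scaled intensity was 80600 to 83978 against 143710 to 147220 in untreated cells. The part of that in the members' changes was not tested.

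Among members with an array above background in both groups, the largest rises with MG132 were on chromosome 1, at intervals that read near background without it. At chr1:85117750-85129200_F scaled intensity was 4.59, 2.60 and 1.82 in untreated cells, 7.26, 7.57 and 3.39 with 4OHT, 52.3, 55.2 and 132 with MG132, and 36.9, 31.5 and 59.7 with both, a rise of 4.70 ± 0.47 (SE; adjusted p = 3.95e-05). At chr1:87343550-87362900_F it was 7.11, 6.33 and 1.68 in untreated cells, 8.38, 11.7 and 4.67 with 4OHT, 75.9, 76.0 and 195 with MG132, and 56.7, 51.2 and 81.3 with both, a rise of 4.62 ± 0.58 (SE; adjusted p = 0.000156). In both, MG132 replicate 3, the array on the other slide, was far above its partners. The sizes depended on processing. Over the alternative settings the first rise ran from 1.912 to 5.559 and the second from 2.366 to 5.525. Without untreated replicate 3, whose low reading of chr1:87343550-87362900_F widened that difference, the second rise was 3.95 and kept its call.

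Rises at 3 further intervals were steady and appeared with and without 4OHT. The chr4:128727332-128735227_F probe read 5.82, 6.05 and 4.43 in untreated cells, 14.3, 11 and 7.58 with 4OHT, 51.0, 63.7 and 83.4 with MG132, and 127, 140.4 and 125 with both. Its difference was 3.59 ± 0.24 (SE; adjusted p = 4.04e-06) for MG132 alone and 3.62 ± 0.24 (SE; adjusted p = 2.41e-06) for both against 4OHT. The chr5:100849748-100858532_R probe read 44.0, 44.1 and 50.4 in untreated cells, 34.5, 45.1 and 57.1 with 4OHT, 386, 385 and 527 with MG132, and 535, 540.1 and 569 with both, with 3.21 ± 0.18 (SE; adjusted p = 1.57e-06) and 3.62 ± 0.18 (SE; adjusted p = 6e-07) in the same order. The chr3:95502970-95503399_R probe read 30.5, 28.7 and 25.8 in untreated cells, 58.7, 56.3 and 32.1 with 4OHT, 243, 246 and 299 with MG132, and 535, 522 and 468 with both, with 3.21 ± 0.21 (SE; adjusted p = 3.14e-06) and 3.42 ± 0.21 (SE; adjusted p = 1.45e-06). In each the 6 arrays with MG132 lay above the 6 without it. The chr2:71205705-71226510_F probe rose by 3.66 ± 0.41 (SE; adjusted p = 8.04e-05) from 1.1, 2.30 and 3.73 to 25.4, 25.2 and 29.5. Members with no untreated array above background were at least 8.38-fold higher at chr5:52581905-52637135_F (adjusted p = 4.7e-05) and at least 7.31-fold at chr11:112898724-113062945_R (adjusted p = 2.42e-06). The latter read 1.77, 2.43 and 2.80 in untreated cells, 4.14, 3.06 and 3.27 with 4OHT, 22, 17.3 and 22.1 with MG132, and 42.7, 46.8 and 55.7 with both.

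Among members so measured, the falls with MG132 were led by chr18:13107755-13107844_F, an interval of 90 bp. It read 87.4, 83.4 and 34.0 in untreated cells, 41.9, 53.2 and 20.1 with 4OHT, 10.8, 11.3 and 4.64 with MG132, and 23.6, 23.7 and 11 with both, a change of -2.93 ± 0.52 (SE; adjusted p = 0.00134), and replicate 3 was the lowest in every group. The chr19:56580315-56592490_F probe read 127, 146 and 110.4 in untreated cells, 119.7, 111 and 105 with 4OHT, 37.2, 34.1 and 16.6 with MG132, and 34.5, 27.9 and 22.4 with both, a change of -2.20 ± 0.28 (SE; adjusted p = 0.000163), with all 6 MG132 arrays below the other 6. The chr6:134879009-134880130_F probe fell with each compound, with changes of -2.04 ± 0.26 (SE; adjusted p = 0.000159) for MG132 and -1.64 ± 0.26 (SE; adjusted p = 0.000971) for 4OHT. At chr1:38892041-38893543_R the change was -2.13 ± 0.38 (SE; adjusted p = 0.0014), with 1 of 3 MG132 arrays above background, and the call was lost after normexp correction.

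Some members rose with 4OHT and fell with MG132. At chr1:138570107-138632310_F scaled intensity was 26.8, 27.2 and 29.3 in untreated cells, 56.9, 54.5 and 67.6 with 4OHT, 9.05, 6.52 and 5.05 with MG132, and 11.8, 10.8 and 15.2 with both. The difference from untreated cells was 1.1 ± 0.20 (SE; adjusted p = 0.00254) for 4OHT and -2.06 ± 0.20 (SE; adjusted p = 3.54e-05) for MG132, and the 4 groups did not overlap. At chr4:146965675-146979325_F it was 106, 103 and 86.3 in untreated cells, 168, 142 and 159 with 4OHT, 28.4, 24.9 and 25.6 with MG132, and 23.1, 25.9 and 22.2 with both, with 0.67 ± 0.11 (SE; adjusted p = 0.00157) and -1.90 ± 0.11 (SE; adjusted p = 2.16e-06). The chr15:102100397-102105872_F probe read 15.5, 15.5 and 14.1 in untreated cells, 53.9, 51.9 and 63.4 with 4OHT, 1.18, 2.58 and 1.54 with MG132, and 2.88, 0.945 and 0.866 with both. It rose with 4OHT by 1.90 ± 0.42 (SE; adjusted p = 0.00664) and was at least 3.81-fold lower with MG132 (adjusted p = 0.00021), since no array with MG132 was well above background. The second bounded fall, chr17:38132217-38157667_R, at least 2.30-fold, did not pass the test (adjusted p = 0.0632).

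Probe pairs of 1 interval and orientation moved together with MG132 as well, again picked after their values were seen. At chr5:96591892-96606467_F, bright in all groups, the 2 probes differed by -1.66 (adjusted p = 7.61e-06) and -1.56 (adjusted p = 1.91e-06), and at chr14:55433382-55452757_R by -1.42 (adjusted p = 3.3e-06) and -1.57 (adjusted p = 7.36e-06). The first chr14:55433382-55452757_R probe read 9130.4, 9172 and 8473 in untreated cells, 6717, 6844 and 7965 with 4OHT, 3210.2, 3543 and 3268 with MG132, and 2828, 2836 and 2970.3 with both. At chr8:91569369-91594119_F the differences of 2 probes were -1.59 (adjusted p = 0.000101) and -1.67 (adjusted p = 0.0486). The second call was lost in 13 of 26 alternative settings, among them slide as a block and the omission of any 1 untreated or MG132 array, and a further F probe of that interval differed by 0.22 (adjusted p = 0.118). Rising pairs were at chr4:116791819-116798263_R (2.27, adjusted p = 0.00503, and 2.73, adjusted p = 2.12e-05) and chr8:34646787-34680312_F, where 1 probe was at least 2.58-fold higher (adjusted p = 0.000331) and the other differed by 2.25 (adjusted p = 0.000397). The first of these values, 2.27, was 3.03 without untreated replicate 1. It lost its call on arrays of the first position row, where MG132 replicate 3 was the only MG132 array.

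With MG132 already present, 4OHT still raised members. Cells with both compounds had 238 members higher and 112 lower than cells with MG132, 350 of 2453 (14.3%), where 25.8% of all probes kept were called (12.6% higher and 13.2% lower). On all 12 arrays it was 16.4%, against 27.9%. The median difference was 0.20 for members and 0.05 for all probes. With slide as a block 110 were called, the same number as within the slide that holds MG132 replicate 3 and all 3 arrays of both, and the median over members was 0.04 there. Leaving out any of MG132 replicates 1 and 2 or any of the 3 arrays of both lowered the count more than 1.5 times, to between 193 and 220 members.

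The comparison of 4OHT with untreated cells and that of both compounds with MG132 share no array. Of the members called in each, 89 were higher in both, 55 lower in both and 3 opposite, so that calls in the same direction were 42.2% of the first list and 41.1% of the second. Over all probes kept these shares were 49.2% and 54.9%. The chr12:82457625-82476325_R probe rose by 3.37 ± 0.30 (SE; adjusted p = 8.36e-05) and the chr14:43408099-43415349_F probe by 3.34 ± 0.27 (SE; adjusted p = 4.08e-05) in the presence of MG132. At chr16:9158862-9162427_F the rise was 2.91 ± 0.25 (SE; adjusted p = 6.4e-05), close to its rise without MG132, and the test of the difference gave an adjusted p of 0.994. The chr11:3521324-3539552_F probe was at least 4.57-fold higher (adjusted p = 5.83e-05). At chr12:52944867-52971992_R scaled intensity was 0.570, 0.583 and 2.57 in untreated cells, 9.59, 11.2 and 9.41 with 4OHT, 1.01, 0.891 and 1.01 with MG132, and 17.5, 15.1 and 15.7 with both, at least 4.07-fold higher (adjusted p = 0.000297). Further rises were at chr15:38639259-38639546_R (2.58, adjusted p = 0.0121), lost with slide as a block and at 1.87 without MG132 replicate 1, and at chr5:73771801-73772662_F (2.46, adjusted p = 0.000806).

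Among members so measured, falls with 4OHT in the presence of MG132 were led by chr8:41730287-41746862_F, which read 4.68, 4.87 and 3.90 in untreated cells, 1.79, 1.62 and 2.08 with 4OHT, 13.2, 13.2 and 13.7 with MG132, and 3.98, 1.46 and 5.37 with both, a change of -2.08 ± 0.37 (SE; adjusted p = 0.00315). The chr10:60473030-60535340_R probe changed by -1.88 ± 0.39 (SE; adjusted p = 0.00641), from 79.2, 72.6 and 119 to 25.4, 21.4 and 25. At chr17:15368546-15377747_R the fall was at least 3.76-fold (adjusted p = 0.00025) and at chr16:94775095-94775634_F at least 3.15-fold (adjusted p = 0.000271). The chr1:183951156-183986156_R probe changed by -1.47 ± 0.26 (SE; adjusted p = 0.00286) and the chr11:16831925-16851121_R probe by -1.46 ± 0.32 (SE; adjusted p = 0.00903), the first lost with slide as a block. Within the slide shared by both groups the calls at chr8:41730287-41746862_F and chr17:15368546-15377747_R were also lost, with 1 MG132 array there.

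The comparison of both compounds with 4OHT alone, which shows what MG132 changed in 4OHT-treated cells, had the most calls. There 523 members were higher and 305 lower, 828 of 2453 (33.8%), where 49.6% of all probes kept were called (25.8% higher and 23.8% lower). On all 12 arrays it was 35.9%, against 51.7%. The median was 0.15 for members and 0.05 for all probes. These groups lie on different slides, and with slide as a block 245 members were called. This comparison and MG132 against untreated cells share no array but share the spread fitted for each probe, so their lists are not independent. Of the members called in each, 269 were higher in both, 165 lower in both and 7 opposite. Calls in the same direction were 67.1% of the MG132 list and 52.4% of this one, against 74.5% and 64.3% over all probes kept. Of called members 63.2% were higher, against 54.6% after quantile normalization, 42.0% after median centring and 48.8% after normexp.

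Beside the rises given above, chr12:89448550-89461843_R read 4.60, 5.41 and 5.74 in untreated cells, 10.4, 6.02 and 5.33 with 4OHT, 34.0, 33.3 and 42.2 with MG132, and 69.0, 73.8 and 71.5 with both, a rise of 3.36 ± 0.22 (SE; adjusted p = 2.2e-06). The chr19:5834117-5835940_R probe rose by 3.23 ± 0.38 (SE; adjusted p = 7.49e-05) and the chr13:98281158-98285757_F probe by 3.64 ± 0.67 (SE; adjusted p = 0.00132), the last lost with slide as a block. The chr11:112898724-113062945_R probe was at least 9.19-fold higher (adjusted p = 6.27e-07) and the chr2:71205705-71226510_F probe at least 4.32-fold (adjusted p = 0.000119). The largest bounded fall was at chr15:102100397-102105872_F, at least 14.7-fold (adjusted p = 5.88e-06). An overlapping interval in the same orientation, chr15:102100964-102104552_F, read 31.5, 37.2 and 34.7 in untreated cells, 99.4, 112 and 151 with 4OHT, 92.0, 3.36 and 4.32 with MG132, and 5.82, 5.23 and 2.72 with both. One MG132 array there was far above its 2 partners, and the change of -4.77 ± 1.00 (SE; adjusted p = 0.00279) was lost with slide as a block.

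Falls that recurred on neighbouring intervals of chromosome 4 were at chr4:146965675-146979325_F (-2.72 ± 0.11 (SE; adjusted p = 2.1e-07)) and chr4:146889650-146904300_F (-2.63 ± 0.15 (SE; adjusted p = 1.19e-06)). The latter read 174, 168 and 137 in untreated cells, 268, 228 and 234 with 4OHT, 58.4, 63.2 and 42.7 with MG132, and 39.6, 40.3 and 37.4 with both, with all 6 MG132 arrays below the other 6. On chromosome 1, chr1:138570107-138632310_F changed by -2.25 ± 0.20 (SE; adjusted p = 1.45e-05) and chr1:138592780-138622719_F, which lies inside that interval, was at least 6.85-fold lower (adjusted p = 6.73e-06). The chr5:123439974-123448354_F probe read 56.8, 56.0 and 48.0 in untreated cells, 137, 121 and 109 with 4OHT, 21.9, 25.1 and 19.5 with MG132, and 24.4, 21.8 and 23.4 with both, a change of -2.40 ± 0.13 (SE; adjusted p = 7.57e-07). At chr13:74712805-74729233_R the change was -2.07 ± 0.18 (SE; adjusted p = 1.28e-05), with 1 of 3 arrays of both compounds above background.

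The test of whether the 4OHT effect differed with and without MG132 called 75 members, or 3.06%, where 6.04% of all probes kept were called. The difference, the effect with MG132 minus that without it, was positive for 35 and negative for 40 members. Over all probes kept the shares were 2.68% positive and 3.36% negative. The sign does not say whether the effect grew or shrank. On all 12 arrays it was 3.39%, against 6.29%. The share of called members with a positive difference was 46.7%, against 66.0% after quantile normalization, 69.4% after median centring and 35.4% after normexp. At chr1:74084292-74138492_R scaled intensity was 0.748, 0.675 and 0.685 in untreated cells, 7.95, 6.80 and 6.06 with 4OHT, 3.45, 3.59 and 3.85 with MG132, and 7.82, 6.04 and 6.29 with both. No untreated array, 2 of 3 4OHT arrays and 1 of 3 MG132 arrays were above background there. It was at least 2.48-fold higher with 4OHT than in untreated cells (adjusted p = 3.28e-07), at least 1.31-fold higher with MG132 (adjusted p = 1.35e-06), and higher by 0.88 on the log2 scale when 4OHT was added to MG132 (adjusted p = 0.0011). The test of the difference gave an adjusted p of 0.000162. As here, 8 of the 10 members named for this test had at least 1 group with no array above background, so their p-values rest in part on signal that is only bounded. Their fitted differences, by which they were ranked, are listed among the flagged results and are not measured sizes. Of the 10 members named for this test, chr1:74084292-74138492_R was the one that kept its call in all settings other than normexp correction.

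At chr2:128137419-128141735_R the 4OHT rise of 3.57 was 0.78 with MG132 present, a difference of -2.79 ± 0.47 (SE; adjusted p = 0.00803). The chr13:51248372-51259297_F probe differed by -1.71 ± 0.38 (SE; adjusted p = 0.0266). The test was also passed at chr1:138592780-138622719_F (adjusted p = 0.0118), where no array with MG132 was above background, and at chr11:3521324-3539552_F (adjusted p = 0.0335), where no array without 4OHT was. In the other direction, no 4OHT array was well above background at the overlapping intervals chr5:22890322-22939119_R and chr5:22887983-22939658_R. These were at least 1.11-fold (adjusted p = 8.95e-05) and at least 1.01-fold (adjusted p = 0.00032) lower with 4OHT than in untreated cells, and 4OHT added to MG132 gave -0.10 and 0.31 on the log2 scale. The test of the difference gave adjusted p = 0.00605 and 0.00634. The first read 4.26, 5.12 and 7.81 in untreated cells, 0.762, 1.48 and 1.08 with 4OHT, 5.57, 4.70 and 5.34 with MG132, and 5.03, 5.09 and 4.44 with both. At chr3:70581406-70614856_R no array was above background outside the cells with both compounds. It read 1.41, 0.661 and 1.39 in untreated cells, 3.49, 1.83 and 1.34 with 4OHT, 1.15, 0.987 and 0.700 with MG132, and 9.83, 14.1 and 6.51 with both, at least 2.45-fold higher with both than with MG132 (adjusted p = 0.000475), and the test of the difference gave an adjusted p of 0.039. The remaining named members were chr4:11926618-11936190_R (adjusted p = 0.0232), with no MG132 array above background, and chr10:62347876-62374346_F (adjusted p = 0.0175), with no 4OHT array above background. With slide as a block 18 members were called, and of those named here the calls at chr1:74084292-74138492_R and chr5:22890322-22939119_R were kept. Without 4OHT replicate 1 there were 116 calls, without untreated replicate 1 or 2 there were 42 and 35, without MG132 replicate 1 or 2 there were 44 and 38, and without 1 of the arrays of both compounds 40, 36 and 49.

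Members in opposite orientations of 1 interval could be compared with different probes of the same orientation. Over 360 intervals with members in both orientations the log2 differences correlated at Pearson's r of 0.06 for 4OHT against untreated, 0.23 for MG132 against untreated, 0.16 for both against MG132 and 0.14 for both against 4OHT. Over 179 pairs of different probes in the same interval and orientation r was 0.54, 0.55, 0.57 and 0.40. The points share arrays and neighbouring sequence, several pairs share a probe, and no test was made of the difference. In 4OHT against untreated, 5 intervals had calls in both orientations, and in MG132 against untreated 30 had, 21 of them in the same and 9 in opposite directions. For same-orientation pairs the MG132 figures were 36 called, 30 in the same and 6 in opposite directions. The spread was wide in both kinds of pair, with a median absolute difference for MG132 of 0.44 between orientations and 0.32 between probes of 1 orientation.

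Opposite calls were made at chr15:102100397-102105872. Its F probe fell with MG132 as described, while its R probe read 34.4, 27.5 and 31.8 in untreated cells, 37.4, 35.2 and 31.8 with 4OHT, 40.5, 40.0 and 82.0 with MG132, and 67.4, 63.9 and 85.3 with both, a rise of 1.04 ± 0.25 (SE; adjusted p = 0.00607) for both against 4OHT, lost with slide as a block. For MG132 against untreated cells the R rise was 0.71 ± 0.25 (SE; adjusted p = 0.0419), a call lost in 14 of 26 alternative settings. At chr1:71730016-71740391 the R probe read 8.64, 6.61 and 4.70 in untreated cells, 12.6, 8.43 and 5.96 with 4OHT, 32.9, 32.1 and 44.9 with MG132, and 64.0, 66.2 and 63.1 with both, with 2.91 ± 0.28 (SE; adjusted p = 2.27e-05) for both against 4OHT and 2.49 ± 0.28 (SE; adjusted p = 7.94e-05) for MG132. The F probe of that interval, above background on 1 of 3 4OHT arrays and on none with both, was at least 1.62-fold lower for both against 4OHT (adjusted p = 0.0121) and changed by -0.87 ± 0.28 (SE; adjusted p = 0.0291) for MG132 against untreated cells, and both F calls were lost with slide as a block.

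Probes of the same orientation could also disagree. For both against 4OHT 1 probe of chr6:90745692-90777977_R was at least 2.21-fold lower and the other differed by 0.93. The 2 probes of chr14:22267795-22319045_F differed by -1.39 and 0.93, those of chr9:88575075-88611650_R by -0.74 and 1.35, and a pair at chr8:91569369-91594119_F by 0.42 and -2.00, the last at -1.06 without 4OHT replicate 2. Every one of these 8 calls was lost with slide as a block. The brighter chr14:22267795-22319045_F probe read 975, 996 and 861 in untreated cells, 1098, 1083 and 841 with 4OHT, 691, 588 and 439 with MG132, and 418, 455 and 292 with both and its partner 86.0, 88.7 and 79.0 in untreated cells, 36.4, 65.4 and 90.5 with 4OHT, 143, 149 and 144 with MG132, and 105, 109 and 129.6 with both.

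Some members lay near each other. Joining intervals with gaps of at most 50 kb gave 1239 runs, of which 305 held 3 or more members (1181 members in all). The array probes 832 intervals in both orientations, and no such count is given for all coordinate-named probes. Whether members lie closer together than the array's probes do was not tested. The run that stood out among the 4 with the most members was chr15:61870759-62102500, with 9 members on 5 intervals. Against untreated cells 6 of the 9 were higher with MG132, with a median of 1.85, or 1.24 with the 4 members that have a group with no array above background set at their bound. For both against 4OHT 6 were higher and the median was 1.59, or 1.11 with 2 such members at their bound. Of all probes kept, 21.0% were higher with MG132 and 25.8% were higher for both against 4OHT. The 6 were all 5 F probes and 1 of 4 R probes. The steadiest, at chr15:61984389-62102500_F, read 60.1, 57.3 and 64.1 in untreated cells, 108, 107 and 116 with 4OHT, 354, 349 and 335 with MG132, and 333, 371 and 335 with both, a rise of 2.52 ± 0.086 (SE; adjusted p = 1.45e-07). A second F probe of that interval rose by 3.04 ± 0.26 (SE; adjusted p = 1.55e-05), the chr15:61870759-61938796_F probe by 3.02 ± 0.53 (SE; adjusted p = 0.0012) and the chr15:62090565-62091770_F probe by 1.24 ± 0.12 (SE; adjusted p = 2.93e-05). The chr15:62007025-62090191_F probe was at least 3.09-fold higher (adjusted p = 0.000541) and the chr15:61984389-62102500_R probe at least 2.19-fold (adjusted p = 0.00207).

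Other probes of this run did not follow. The second R probe of that interval read 23.2, 20.8 and 26.2 in untreated cells, 6.77, 8.06 and 14.9 with 4OHT, 17.6, 18.1 and 22.8 with MG132, and 9.08, 9.96 and 10.6 with both, with -0.27 ± 0.25 (SE; adjusted p = 0.433) for MG132 and -1.32 ± 0.25 (SE; adjusted p = 0.00295) for 4OHT. The 2 probes of chr15:61919018-61935580_R did not pass the MG132 test (adjusted p = 0.279 and 0.0513), with no MG132 array above background at the first and no untreated array at the second. With 4OHT alone the chr15:61984389-62102500_F probe rose by 0.87 ± 0.086 (SE; adjusted p = 5.03e-05), and adding 4OHT to MG132 left it at 333, 371 and 335 against 354, 349 and 335. The intervals of the run overlap, so its probes are not independent readings. The MG132 count of the run was 5 to 7 over the settings that kept all 9 members. That of both against 4OHT was 3 with slide as a block and up to 8 where single probes were fitted. It was 9 with probes of an interval and orientation averaged, where probes sharing a mean are each counted.

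The other 3 of these runs held few calls or mixed ones. Beside their counts, 13.4% of all probes kept were higher with 4OHT, and 21.0% were higher and 21.8% lower with MG132. The run with the most members, chr1:138442536-138632310, had 13 members on 10 intervals, 4 of them higher with 4OHT and 4 lower with MG132, with medians of 0.40 and −0.17 (−0.021 for MG132 with 3 members at their bound). Its chr1:138528250-138538250_F probe read 134, 133 and 166 in untreated cells, 209.6, 189 and 272 with 4OHT, 123, 107 and 113 with MG132, and 98.3, 86.6 and 103 with both, with 0.62 ± 0.15 (SE; adjusted p = 0.0106) for 4OHT, lost after median centring, and -1.20 ± 0.15 (SE; adjusted p = 0.000112) for both against 4OHT. The chr12:110842154-110988678 run had 11 members, of which 2 were lower with MG132. Their differences from untreated cells ran from −1.06 to 0.56 with 4OHT and from −0.57 to 0.20 with MG132. Of the 9 members of chr18:35967933-35986564, 1 was higher with 4OHT and 1 with MG132.

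Some members differed between replicate numbers. Within groups, 111 members (67 higher, 44 lower; 4.53%) differed between replicate 3 and the others, where 9.38% of all probes kept were called (4.80% higher and 4.58% lower). On all 12 arrays it was 5.81%, against 10.6%. Of called members 60.4% were higher, against 48.1% after median centring. The chr15:96984422-97000322_R probe read 17.2, 18.8 and 64.0 in untreated cells, 29.4, 22.1 and 79.6 with 4OHT, 18.8, 19.0 and 51.7 with MG132, and 25.2, 23.0 and 69.2 with both. The third array was the highest in every group, and the log2 difference was 1.61 ± 0.092 (SE; adjusted p = 7.32e-05). At chr1:121971906-121988306_R the difference was 1.56 ± 0.18 (SE; adjusted p = 0.00127), again with replicate 3 the highest in every group. The chr13:98281158-98285757_F and chr11:117835849-117842574_R probes were higher on replicate 3 by 1.43 and 1.29 (adjusted p = 0.00685 and 0.00845). Lower on replicate 3 were chr18:13107755-13107844_F (-1.23 ± 0.073 (SE; adjusted p = 8.38e-05)), chr4:126009815-126015875_F (-1.08 ± 0.16 (SE; adjusted p = 0.00427)), chr4:123171177-123177198_R (-0.96 ± 0.16 (SE; adjusted p = 0.00735)) and chr4:145000941-145148666_F (-0.86 ± 0.16 (SE; adjusted p = 0.0111)). Without untreated replicate 2 or 3 there were 72 and 66 calls, without MG132 replicate 3 there were 63, and without replicate 2 or 3 of both compounds 72 and 63. Within slide 1 alone 9 members were called. Within slide 2 limma called 0 members, with 385 at an unadjusted p below 0.05.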

How the data were processed

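Total RNA was prepared with DNase treatment, and 100 ng was labelled with Cy3 for 1-colour Agilent arrays, per the labels' protocols. Per the file headers, Agilent Feature Extraction (version 11.0.1.1) made the processed intensity that the authors deposited for every array, background-subtracted within the array and not scaled between arrays. The series-wide table the authors deposited held the same intensity values. Outlier spots (71 to 229 per array) and 3671 control spots were left out, and spots of 1 probe were averaged (300 probes lay on 10 spots). No spot was saturated. Values were log2 of processed intensity minus the array's 75th percentile over probes (207 to 320.1 intensity units). All 34331 probes kept were fitted with limma 3.58.1 in R 4.3.3, with 1 term per group over 12 arrays (8 residual degrees of freedom) and Benjamini-Hochberg adjustment over all of them at 0.05. The fit was tested on simulated data. A missing value of a member (10 members, outlier spots) was dropped. P-values reflect only the spread among the samples at hand, and the number of arrays limits their precision.

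For each comparison the members named were, among those called with groups apart and at least 1 array of each group well above background, the 6 largest rises and 6 largest falls, and the 2 largest bounds in each direction. For the test of the difference they were the 5 largest in each direction, and for replicate 3 the 4 largest. The runs with the most members and the intervals with opposite calls were named too. Runs after the fourth were tied and are not described. Probe pairs were chosen after their values were seen. Members and lists were chosen with earlier results of these data known. Alternatives were normexp on median signals (offset 50), quantile normalization, median centring, other filters, the deposited table, only the arrays compared, slide or replicate number as a block, a mean over probes of an interval and orientation, and each array left out. Arrays within slide 2 and position on the slide were added after seeing the data.

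Same-numbered replicates were checked for pairing. Over all probes their deviations from group means correlated at −0.05 to 0.15 for replicate 1, 0.07 to 0.16 for replicate 2 and 0.13 to 0.40 for replicate 3. Over members the values were −0.07 to 0.06, 0.01 to 0.06 and −0.04 to 0.22. Numbers were not treated as pairs in the main fit, although arrays of replicate 3 shared some deviation. Counts with replicate number as a block are given below.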

Additional observations from a re-analysis of the deposited data

Results flagged for a closer look

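The 4OHT effects without and with MG132 differed, by the limma test of the difference itself, at 24 of the members named for any comparison or run, most of them described above. The difference is the effect with MG132 minus the effect without it, on the log2 scale. With slide as a block 18 of the 24 calls were lost, and with the position row as a block 19.

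At 15 of the 24 every group had an array well above background. The effect was smaller with MG132 at chr2:128137419-128141735_R (−2.79, from 3.57 to 0.78). Both probes of chr6:52046805-52072744_F (−0.89 and −1.30) and 1 of the 2 probes of chr4:146507925-146532650_R (−1.09) rose with 4OHT in each background. At chr4:116791819-116798263_R (−1.60), chr5:123439974-123448354_F (−1.12), chr4:146889650-146904300_F (−1.08), chr4:146965675-146979325_F (−0.82), chr1:138528250-138538250_F (−0.88) and both F probes of chr15:61984389-62102500_F (−0.87 and −1.45) the member rose with 4OHT alone, and the effect in the presence of MG132 was between −0.47 and 0.07. At chr13:51248372-51259297_F (−1.71) and chr13:74712805-74729233_R (−1.42) the effects without MG132, 0.46 and 0.22, did not pass the test, and those with it were -1.25 and -1.19. At chrX:91000651-91005855_R (−0.77) the effect was -0.80 without and -1.57 with MG132. It was larger with MG132 at chr8:124648600-124731250_R (1.37, from 1.13 to 2.51), which read 9.21, 10.2 and 8.64 in untreated cells, 19.4, 22.8 and 19.5 with 4OHT, 11.7, 12.6 and 20.3 with MG132, and 86.5, 75.1 and 84.4 with both.

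At the other 9 at least 1 group had no array well above background, so the fitted difference there is not a measured size and its test rests in part on signal that is only bounded. These fitted differences were −2.42 at chr1:74084292-74138492_R, −2.21 at chr11:3521324-3539552_F, −2.14 at chr1:138592780-138622719_F, 2.57 at chr4:11926618-11936190_R, 2.47 at chr3:70581406-70614856_R, 2.28 and 2.27 at the overlapping chr5:22890322-22939119_R and chr5:22887983-22939658_R, 2.14 at chr10:62347876-62374346_F and 1.45 at chr17:29183003-29217681_R. The last read 14.2, 11.6 and 8.63 in untreated cells, 1.5, 1.61 and 1.22 with 4OHT, 19.6, 23.1 and 16.4 with MG132, and 7.86, 6.69 and 6.05 with both, at least 2.24-fold lower with 4OHT than in untreated cells (adjusted p = 4.48e-06).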

How the results depend on the processing

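Counts of called members moved by more than 1.5 times under these settings. With 4OHT against untreated cells (341), 659 were called after normexp correction, 220 with only the arrays compared, 622 with the position row as a block and 885 on arrays of the first position row. For both against MG132 (350) there were 195 without a filter, 110 with slide as a block, 110 within slide 2, 181 with the position row as a block and 205 on the first row. For both against 4OHT (828) there were 245 with slide as a block. For the test of the difference (75) there were 47 without a filter, 18 with slide as a block, 35 with the position row as a block and 284 on the first row. For replicate 3 (111) there were 51 without a filter, 63 with slide as a block, 9 within slide 1, 0 of 2452 by limma within slide 2 (385 at an unadjusted p below 0.05) and 37 on the first row. The causes were not tested, apart from fewer arrays in some of these fits. With each array left out in turn the counts ran from 253 to 419, 507 to 782, 193 to 517, 662 to 995, 35 to 116 and 63 to 165 for the 6 comparisons as ordered above.

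With the replicate block the counts were 384, 698, 437, 880 and 104 for the first 5 comparisons, and 88 of 88 calls of named members kept their side of the threshold. With slide block and replicate block together they were 81 for both against MG132, 212 for both against 4OHT and 19 for the test of the difference.

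Of 96 results for named members, 24 lost their call with slide as a block, 16 with the position row as a block, 15 after normexp correction, 1 after quantile normalization and 3 after median centring, and the last 2 settings reversed none. Median centring moved the median of all probes to −0.15, −0.30, −0.01 and −0.15 in the first 4 comparisons. Directions reversed where probes of an interval and orientation were averaged, which replaces each probe by the mean of disagreeing probes. For both against 4OHT this gave −0.35 for A_30_P01033661, −0.86 for A_30_P01023672, −0.089 for A_30_P01021435 and 0.30 for A_30_P01029192. After normexp correction A_30_P01018023, 1 probe of a lower pair at chr17:95150800-95180650_F (main value −0.57), was at 0.056 for 4OHT against untreated cells, and the cause was not tested. Signal near background limits the dimmest members: 888 of 2453 were not above background on every array.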
